A study of Homo sapiens with 2 samples.

Results

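Serine, cysteine and asparagine synthesis is represented here by 10 genes that the transcription factor ATF4 is known to switch on. They are a list of names with no threshold on measured values, and all 10 were found among the 61806 genes of the count table and among the 13924 genes with an FPKM value (reads scaled to gene length and library size). RNA came from HEL, a human erythroleukemia cell line of wild-type genotype, grown in RPMI with serum. The vehicle culture received 0.5% DMSO and the treated culture received 1 µM of L1, a synthetic derivative of diindolylmethane, both for 24 h. A single poly(A)-selected library was sequenced per condition, so the spread between cultures is unknown and no test or p-value is given. Every difference below is between 2 libraries of 1 cell line. In bulk RNA, fewer cells with a transcript and less of it per cell cannot be told apart.

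The total was 32556872 counts with DMSO and 27135647 with L1, and the members took 0.0957% and 0.0857% of them. Counts were scaled by edgeR's TMM method, which set the DMSO library at 1.16 times the effective size of the L1 library. GATA1, the erythroid factor, had 6469 counts with DMSO and 5923 with L1, which after scaling was a log2 ratio of 0.09 (95% counting interval 0.03 to 0.14). Of 4 T cell markers 1 was kept by the filter described below (57 and 55 counts), of 4 B cell markers 2 (159 and 97 counts summed) and of 4 epithelial markers 2 (781 and 610 counts summed), while the defining CD3D, CD3E, MS4A1 and EPCAM were at 0 in both libraries. Markers of the erythroid and megakaryocyte programs, which HEL cells carry together, were not level between the libraries. The median log2 ratio of L1 over DMSO was 0.42 over 10 erythroid markers and -0.37 over the 5 of 6 megakaryocyte markers that were kept (PF4 was at 0). The erythroid markers ran from TFRC (-1.25, with 17721 and 6420 counts) to HBG1 (1.78, with 5620 and 16681 counts, uncertain as it has the near-identical copy HBG2 at 0.22), with 7 intervals wholly above 0 and 2, of TFRC and KLF1, wholly below, and the part of this shift in the results below was not tested.

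When cells sense missing amino acids, unfolded proteins in the endoplasmic reticulum (ER), lack of heme or mitochondrial trouble, kinases of the EIF2AK family phosphorylate the initiation factor eIF2α. General translation slows, while ATF4 protein is made more efficiently, so ATF4 activity can change with little change in its own mRNA. ATF4 pairs with C/EBP proteins on a composite element with the core TGATGNAA and turns on genes for amino acid supply. RPMI medium itself supplies serine, glycine, asparagine and cystine.

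Promoters of 8 of the 10 members were found in the RefSeq table of 300-base windows (GRCh38.p14, from 250 bases before to 50 after the start site); PSPH and SHMT2 were not matched. The core, searched as TGATGNAA and its reverse complement TTNCATCA, was present in 1 promoter of ASNS and in that of CHAC1, so in 2 of 11 windows of the members. Over all 35116 windows the share was 3.62%. The 2 sites are shown because no other member had a match. This says only that the letters are missing from the windows searched. Each is written 5′ to 3′ on the strand of its gene, with the core in capitals. ASNS lies on the minus strand, at chr7:97872458-97872487, with the core at position -68 from the start site (negative positions lie before it). CHAC1 lies on the plus strand, at chr15:40953251-40953280, with the core at position -209 and read on the opposite strand. Both sites fall within exons that GENCODE 29 annotates for the same gene.
ASNS: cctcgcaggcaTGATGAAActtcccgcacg
CHAC1: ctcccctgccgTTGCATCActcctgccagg

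The same core stood in the promoters of 22 of the 124 kept genes from all lists of this report that had a promoter in the table, or 17.7%. Counted by gene over the whole table it was 1217 of 27305, or 4.46%, and no test was made, since the lists hold genes known as ATF4 targets. The log2 ratios of the 22 genes with a match had a median of -0.08, beside 0.06 for the genes without a match. These groups differ in their make-up by list. Of the chaperone targets of ATF6 and XBP1, a list given below with a median of 0.73 over 19 genes, only HERPUD1 had a match. The part of this in the medians was not tested. Apart from the members, the lowest and the highest log2 ratios among them belonged to the genes shown next, PPP1R15B (a phosphatase subunit) and JDP2 (a bZIP repressor) at the low end and AHCYL2 (a relative of adenosylhomocysteinase) and HERPUD1 (a factor of ER-associated degradation) at the high end. A match of letters is a description of the sequence and not a binding site.
PPP1R15B, log2 ratio -1.20 (chr1:204412026-204412055, minus strand): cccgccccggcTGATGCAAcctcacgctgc
JDP2, log2 ratio -0.72 (chr14:75427995-75428024, plus strand): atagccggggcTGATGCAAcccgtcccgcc
HERPUD1, log2 ratio 0.78 (chr16:56931955-56931984, plus strand): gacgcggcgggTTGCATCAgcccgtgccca
AHCYL2, log2 ratio 1.39 (chr7:129368232-129368261, plus strand): ggtgcagcactTTGCATCAgctctgatttt
Genes with the identical 8-letter core TGATGCAA, or its reverse complement, were thus found at both ends of the range.

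None of the 10 members differed by 2-fold or more between the libraries. Genes were kept if either library held 10 counts or more, which left 18123, of which 7.12% were 2-fold higher or more with L1 and 4.83% were 2-fold lower or more. All members passed this filter. Their median log2 ratio was -0.16 beside -0.004 for all genes kept, with 3 members above 0 and 7 below. SHMT2 and CTH, at -0.002 and 0.004, changed sign with the scaling (both from -0.03 to 0.05), and the other 8 kept theirs under all 4 scalings tried. PSAT1 and CBS were at least 1.5-fold lower, where the share over all genes was 11.4%, and no member was at least 1.5-fold higher, where it was 13.8%. The 95% counting interval of the log2 ratio (exact, Clopper-Pearson, for counting error only) lay wholly below 0 for 5 members, namely CBS, PSAT1, ASNS, PHGDH and MTHFD2, and wholly above 0 for none. Over all genes kept, 28.6% lay wholly below 0 and 26.8% wholly above. In the 12365 genes that reached 100 counts in either library, as every member did, the shares were 36.7% and 30.5%. Large differences were rarer in these 12365 genes than over all genes kept. With L1, 387 of them were up by 2-fold or more and 361 were down by as much. For 1.5-fold these numbers were 912 up and 1016 down. Nothing particular to the members is read from calls on only 10 genes.

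**Figure D1:**
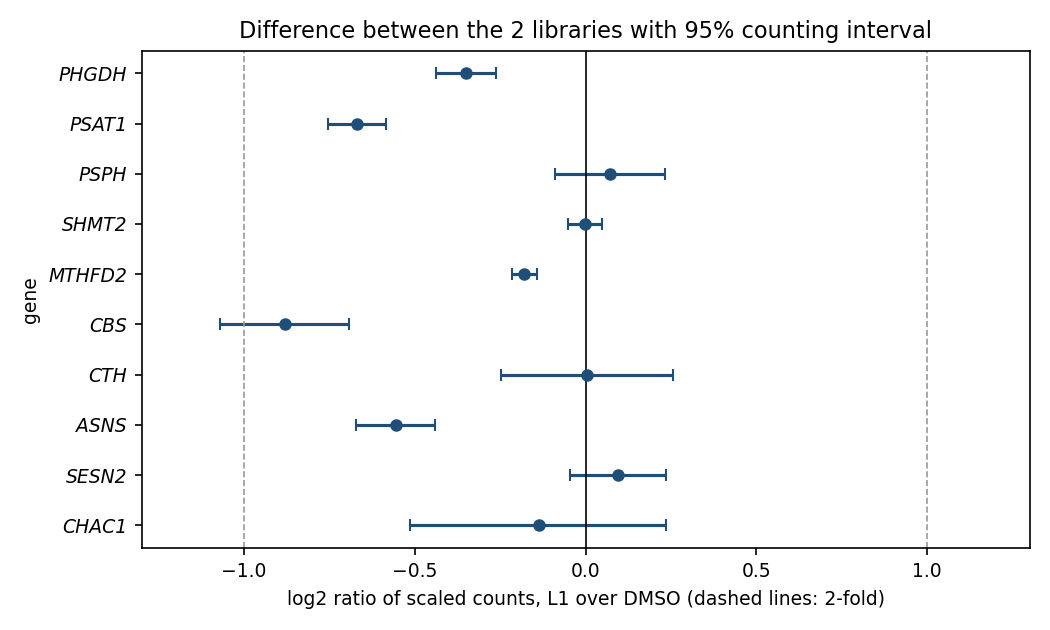
Log2 ratio of scaled counts, L1 over DMSO (horizontal axis), for each of the 10 genes (vertical axis), with bars for the exact 95% counting interval and dashed lines at 2-fold. CBS (-0.88), PSAT1 (-0.67), ASNS (-0.56), PHGDH (-0.35) and MTHFD2 (-0.18) have intervals wholly below 0, while those of the other 5 genes include 0.

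The serine pathway takes a glycolytic intermediate through 3 enzymes to serine. PHGDH (ENSG00000092621, chromosome 1 from 119648411 to 119744226 on GRCh38), the dehydrogenase of the first step, had 2586 counts with DMSO and 1751 with L1. Its FPKM was 8.85 and 6.95, and its log2 ratio was -0.35 (95% interval -0.44 to -0.26). PSAT1 (ENSG00000135069, chromosome 9 from 78297143 to 78330093), the aminotransferase of the second step, had 3237 and 1755 counts and an FPKM of 46.2 and 29.01. Its log2 ratio of -0.67 (95% interval -0.75 to -0.59) put its L1 level at 0.628 of that in DMSO. PSPH (ENSG00000146733, chromosome 7 from 56011051 to 56051604), the phosphatase of the last step, had 663 counts with DMSO and 601 with L1, with FPKM of 7.55 and 7.93. For PSPH the log2 ratio was 0.07, not distinct from 0 by counting error (95% interval -0.09 to 0.23).

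The 3 steps differed from each other in their ratio by more than counting error. The log2 ratio of PSAT1 was lower than that of PSPH by a difference of -0.74 (95% interval -0.92 to -0.56), and lower than that of PHGDH by -0.32 (95% interval -0.44 to -0.20). PHGDH stood below PSPH by -0.42 (95% interval -0.61 to -0.24). Such differences between genes of the same libraries do not depend on the scaling, and their intervals again cover counting error only.

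Serine is split in mitochondria into glycine and a one-carbon unit carried by folate. SHMT2 (ENSG00000182199, chromosome 12 from 57229327 to 57234935), the hydroxymethyltransferase that does this, had 6921 counts with DMSO and 5961 with L1. Its FPKM was 47.4 and 47.3, and its log2 ratio was -0.002 (95% interval -0.05 to 0.05). MTHFD2 (ENSG00000065911, chromosome 2 from 74198562 to 74217565), which oxidises the folate-bound unit in the next step, had the most counts of the group, 14048 with DMSO and 10700 with L1. The FPKM of MTHFD2 was 38.6 and 34.1, and its log2 ratio was -0.18 (95% interval -0.22 to -0.14). MTHFD2 stood below SHMT2 by a difference of -0.18 (95% interval -0.24 to -0.12). Exons of SLC4A5 on the opposite strand cover 27.2% of the MTHFD2 exon bases, and SLC4A5 had 19 counts with DMSO and 141 with L1. Whether the counting used strand is not given in the sources used here.

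Paralogs of these enzymes that are not among the 10 members were measured beside them. SHMT1, the cytosolic form of SHMT2, had 1314 and 844 counts and a log2 ratio of -0.43 (95% interval -0.55 to -0.30), so the log2 ratio of SHMT2 stood 0.42 above it (95% interval 0.29 to 0.56). MTHFD2L, the relative of MTHFD2 found in adult tissues, had 818 and 773 counts and a log2 ratio of 0.13 (95% interval -0.01 to 0.28). MTHFD1 had 5790 counts with DMSO and 4432 with L1, and a log2 ratio of -0.17 (95% interval -0.23 to -0.12), close to that of MTHFD2. MTHFD1L, which releases formate in mitochondria, had a log2 ratio of -0.06, and its interval from -0.13 to 0.02 included 0. A promoter of MTHFD1L held the core TGATGNAA or its reverse complement.

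Cysteine is made from homocysteine and serine by transsulfuration. CBS (ENSG00000160200, chromosome 21 from 43053191 to 43076943), which joins the substrates, had 728 counts with DMSO and 341 with L1, and its FPKM was 3.37 and 1.83. Its log2 ratio of -0.88 was the lowest of the members, and the interval from -1.07 to -0.69 reached past 2-fold. Of the 31-base words in CBS transcripts, 56.3% also occur in another gene, 55.9% in the near-identical copy CBSL. The count of CBS may thus hold only part of its reads and is uncertain. A search by gene name found no row for CBSL in the counts, so CBSL was not analysed here. CTH (ENSG00000116761, chromosome 1 from 70411218 to 70439851), which releases cysteine in the second step, had 282 counts with DMSO and 244 with L1, with FPKM of 3.67 and 3.69. Its log2 ratio was 0.004 (95% interval -0.25 to 0.26), and CBS stood below CTH by a difference of -0.89 (95% interval -1.20 to -0.57).

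ASNS (ENSG00000070669, chromosome 7 from 97852118 to 97872542) makes asparagine from aspartate with nitrogen from glutamine. It had 1676 counts with DMSO and 983 with L1, and its FPKM was 10.8 and 7.32. Its log2 ratio was -0.56 (95% interval -0.67 to -0.44), an L1 level of 0.68 times that in DMSO. The overlapping gene AC079781.5 shares 44.6% of the ASNS exon bases on the same strand and had 88 counts with DMSO and 26 with L1. With both genes summed the log2 ratio was -0.59 (95% interval -0.71 to -0.48). ASNS and PSAT1 were not told apart by counting error, with a difference of -0.11 for PSAT1 against ASNS (95% interval -0.25 to 0.03). The ratio of ASNS was lower than that of the regulator ATF4 itself by -0.43 (95% interval -0.56 to -0.30). PHGDH (-0.22), PSAT1 (-0.55) and CBS (-0.76) also stood below ATF4 by differences whose intervals excluded 0. PSPH (0.20, 95% interval 0.03 to 0.37), SHMT2 (0.12, 0.04 to 0.20) and SESN2 (0.22, 0.07 to 0.37) stood above it, and the intervals for MTHFD2, CTH and CHAC1 included 0. ASNSD1, which resembles ASNS in sequence, had a log2 ratio of 1.25, from 987 to 2027 counts.

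The other 2 members act on signalling and on glutathione rather than on synthesis. SESN2 (ENSG00000130766, chromosome 1 from 28259527 to 28282491), a leucine sensor that restrains mTORC1, had 874 counts with DMSO and 805 with L1, and its FPKM was 7.94 and 8.48. Its log2 ratio was 0.09, the highest of the members, with an interval from -0.05 to 0.23. Its paralogs SESN1 (log2 ratio 0.62) and SESN3 (0.82), targets of p53 and FOXO factors, were higher in the L1 library. SESN2 stood below SESN1 by a difference of -0.53 (95% interval -0.73 to -0.33) and below SESN3 by -0.72 (95% interval -0.97 to -0.48). CHAC1 (ENSG00000128965, chromosome 15 from 40952962 to 40956519), which cleaves glutathione and is used as a marker of the ATF4 and CHOP branch, had the fewest counts of the members, 139 with DMSO and 109 with L1. Its FPKM was 2.13 and 1.94, and its log2 ratio was -0.14 (95% interval -0.51 to 0.23). ASNS, the other gene with the core in its promoter, stood below CHAC1 by -0.42, with an interval from -0.81 to -0.03 that nearly reached 0.

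**Figure D2:**
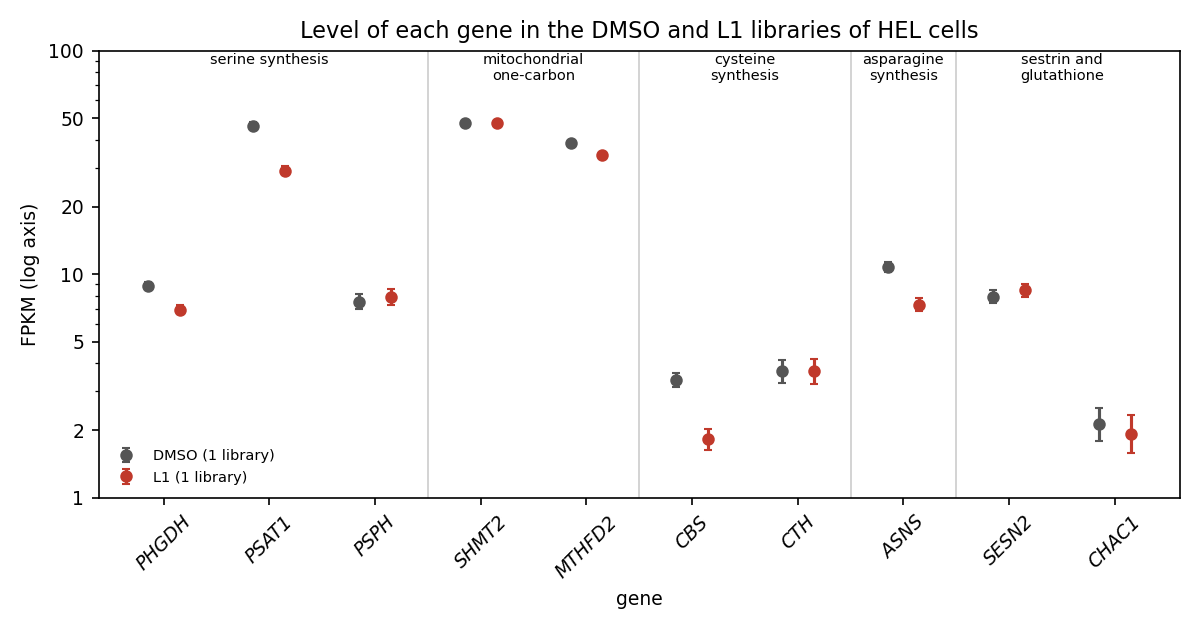
FPKM on a log axis (vertical) of the 10 genes (horizontal, grouped by role) in the DMSO library (grey) and the L1 library (red), with bars for the exact 95% Poisson interval of the count. SHMT2 is at 47.4 and 47.3 FPKM, PSAT1 at 46.2 and 29.01 and CBS at 3.37 and 1.83.

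Levels can be compared between genes only per length. By FPKM in DMSO the order ran from SHMT2 (47.4) and PSAT1 (46.2), whose Poisson intervals overlap, through MTHFD2 (38.6), ASNS (10.8) and PHGDH (8.85) to SESN2 (7.94), PSPH (7.55), CTH (3.67), CBS (3.37) and CHAC1 (2.13). The intervals of SESN2 and PSPH overlapped, and so did those of CTH and CBS. In the L1 library MTHFD2 (34.1) stood above PSAT1 (29.01), and SESN2 (8.48) and PSPH (7.93) stood above ASNS (7.32) and PHGDH (6.95). The intervals of ASNS and PHGDH overlapped there, as did those of PSPH with both SESN2 and ASNS. CBS (1.83) and CHAC1 (1.94) were the lowest and overlapped.
The gene lengths behind the FPKM values can be read back from the counts, and they differ from single transcripts. For PHGDH the length was 9126 bases, while its longest coding transcript in GENCODE 29 has 2585 bases, and for MTHFD2 the lengths were 11367 and 4456 bases. The 11367 bases also exceed all 4870 exon bases of MTHFD2 in GENCODE 29. The gene model behind its FPKM thus differs from that annotation, and its place by FPKM is uncertain. For PSAT1 the length read back and that of the longest coding transcript were nearly equal, 2191 and 2188 bases. CPM per kilobase of the longest coding transcript put MTHFD2 first (98.5 in DMSO) ahead of SHMT2 (85.2), PSAT1 (46.2) and PHGDH (31.3). The length does not touch the comparison of a gene between the libraries.

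**Figure D3:**
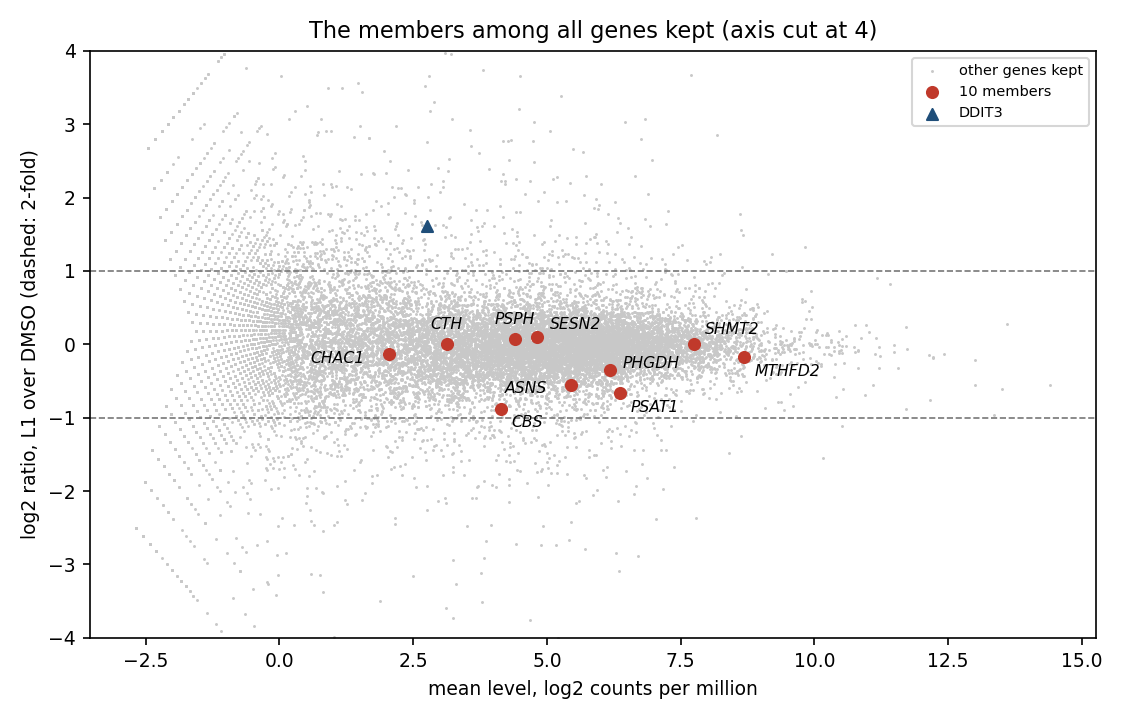
Log2 ratio of L1 over DMSO (vertical) against the mean level in log2 CPM (counts scaled to library size, horizontal) for the 18123 genes kept, of which 81 lie beyond the axis limit of 4. The 10 members (red) lie between -0.88 and 0.09, inside the dashed 2-fold lines, and DDIT3 (triangle) lies above them at 1.62 with a prior count of 2.

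The members were spread over the lower and the middle part of the range. In the same 12365 genes, CBS was at percentile 3.66 of the log2 ratios, PSAT1 at 6.44, ASNS at 8.90 and PHGDH at 18.0. MTHFD2 was at 32.1 and CHAC1 at 36.9. SHMT2, CTH, PSPH and SESN2 lay between percentiles 53.4 and 65.0, so no member lay above percentile 65.0.

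ATF4 itself had 4829 counts with DMSO and 3820 with L1. Its log2 ratio was -0.13 (95% interval -0.19 to -0.06), and 29.7% of its 31-base words are shared with other genes, mostly its pseudogenes. DDIT3, which encodes the pro-apoptotic factor CHOP and is also a target of ATF4, had 106 and 284 counts and stood 3.11-fold higher, a log2 ratio of 1.63 with bounds of 1.31 and 1.97. Exons of MARS, the methionyl-tRNA synthetase gene, on the opposite strand cover 27.2% of the DDIT3 exon bases, with 6077 counts with DMSO and 6379 with L1. CHAC1 stood below DDIT3 by a difference of -1.77 (95% interval -2.28 to -1.27). TRIB3, a pseudokinase induced by ATF4 with CHOP, had 935 and 825 counts and a log2 ratio of 0.03, with an interval from -0.10 to 0.17 that included 0. ATF3, with 118 and 94 counts, had a log2 ratio of -0.11 (95% interval -0.52 to 0.29).
In the list of 30 regulators and other targets of the ATF4 branch, 27 were kept. Their median log2 ratio was -0.11, 3 were at least 2-fold higher and 1 was at least 2-fold lower. The higher genes were DDIT3, TXNIP (1.46), an inhibitor of thioredoxin, and DDIT4 (1.21, from 178 to 355 counts), an inhibitor of mTORC1. Exons of DDIT4-AS1 on the opposite strand cover 41.2% of the DDIT4 exon bases, and no counts were found for DDIT4-AS1. The lower gene was PPP1R15B (-1.20), the constitutive partner of the phosphatase that acts on eIF2α, from 4520 to 1702 counts. Its inducible counterpart PPP1R15A had a log2 ratio of 0.66 (95% interval 0.60 to 0.72), from 3952 to 5403 counts.

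**Figure D4:**
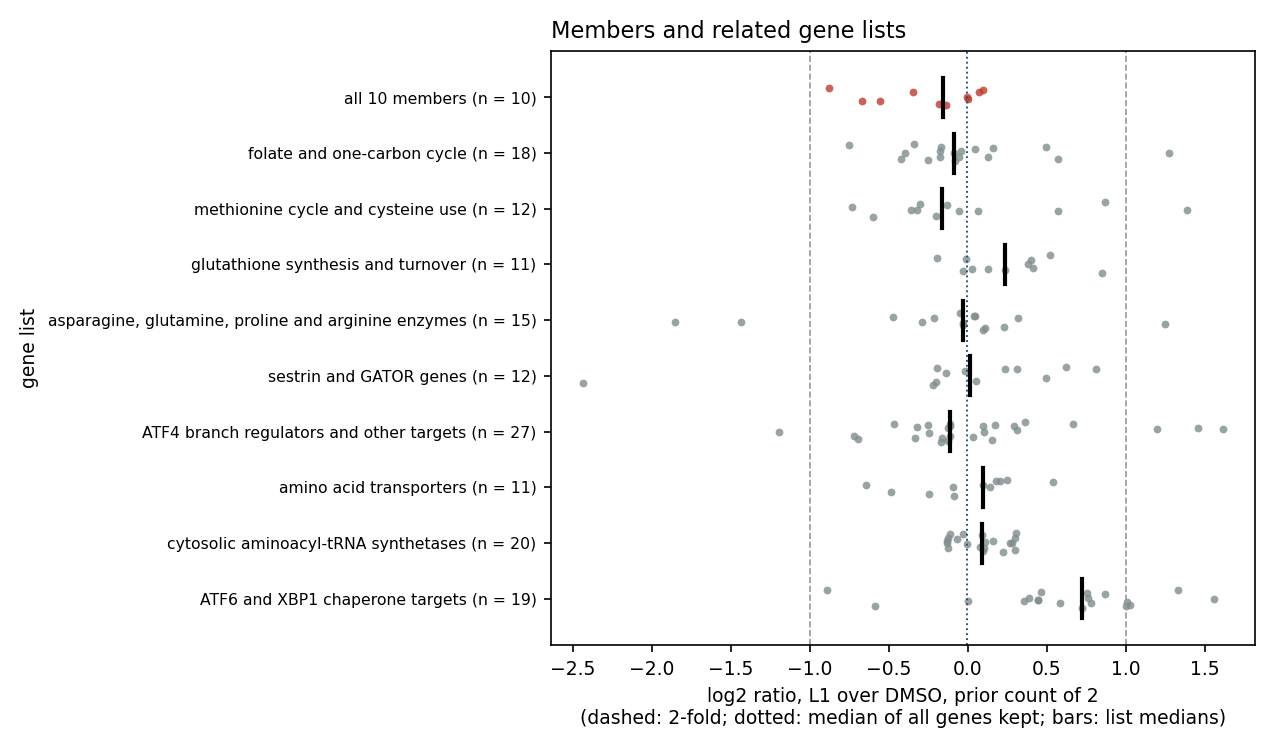
Log2 ratio of L1 over DMSO with a prior count of 2 (horizontal) for each kept gene (points) of the members (red) and of 9 related lists (grey, vertical), with black bars at the medians. The median of the members is -0.16 and that of the ATF6 and XBP1 chaperone targets is 0.73, while the other medians lie between -0.17 and 0.24.

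The enzymes around the members went both ways. In the folate and one-carbon list, 18 of 19 genes were kept with a median log2 ratio of -0.08. An interval wholly below 0 was held by 9 of them and one wholly above 0 by 1. Over all genes kept, these shares were 28.6% below and 26.8% above. GLDC, the glycine decarboxylase, was past 2-fold on 4 and 11 counts only. TYMS, the thymidylate synthase that uses a one-carbon unit, was the lowest of those with at least 100 counts (-0.75, with 11560 and 5931 counts and 39.1% of its exon bases under ENOSF1 on the opposite strand). In the methionine cycle the median was -0.17 over 12 kept genes, with 6 intervals wholly below 0 and 2 wholly above. MTR, the methionine synthase, had a log2 ratio of -0.73 (from 2479 to 1286 counts). Its reactivating partner MTRR had 0.87 (from 1102 to 1740 counts), a difference of -1.61 between them (95% interval -1.75 to -1.46). AHCYL2, a relative of the enzyme that splits S-adenosylhomocysteine, was the only one at least 2-fold higher (1.39, from 363 to 822 counts).

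The glutathione list, which spends the cysteine that CBS and CTH help to make, had the highest median of the enzyme lists, 0.24 over 11 genes, with 6 intervals wholly above 0 and 1 below. GGCT, a cyclotransferase of glutathione breakdown, was the highest of those with at least 100 counts (0.52) and GCLC, the catalytic subunit of the first step of synthesis, was the lowest (-0.20). GCLM, its modifier subunit, had 0.41 and GSS, the synthetase of the last step, had 0.38. CHAC2, the constitutive paralog of CHAC1, had a log2 ratio of 0.24 (95% interval 0.09 to 0.39), and CHAC1 stood below it by -0.38, with an interval from -0.78 to 0.03 that included 0.
Among the enzymes of asparagine, glutamine, proline and arginine, 15 of 19 were kept with a median of -0.03. GPT2, the mitochondrial alanine transaminase and also an ATF4 target, had the lowest log2 ratio, -1.87 (95% interval -2.12 to -1.62), from 711 to 168 counts. GLUD1, glutamate dehydrogenase, followed with -1.44, from 4603 to 1465 counts, and 32.2% of its 31-base words are shared with other genes, mainly GLUD2. ASNSD1 was the highest.
Of the sestrin and GATOR genes, which tie amino acid sensing to mTORC1, 12 were kept with a median of 0.02. CASTOR1, an arginine sensor, was past 2-fold lower on 22 and 2 counts. Those with at least 100 counts ran from SEH1L (-0.22) to SESN3 (0.82).

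Other groups of ATF4 targets had medians near 0 with genes on both sides. The 20 cytosolic aminoacyl-tRNA synthetases had a median log2 ratio of 0.09 and lay between SARS1 (-0.13) and FARSA (0.31), with none at least 1.5-fold apart. Of these, 12 had an interval wholly above 0 and 6 wholly below. The 11 kept amino acid transporters had the same median to 2 decimals, 0.09, and lay between SLC1A5 (-0.64), the glutamine carrier, which was at least 1.5-fold lower, and SLC38A5 (0.54). Their intervals lay wholly above 0 for 5 and wholly below for 4. The chaperone targets of ATF6 and XBP1, the other branches of the unfolded protein response, stood higher. Their median was 0.73 over 19 genes, 16 had an interval wholly above 0 and 2 below, and 5 were at least 2-fold higher, namely HSPA5, HSP90B1, XBP1, CRELD2 and CALR. The 2 genes below 0 were each at least 1.5-fold lower, CANX (calnexin, -0.89, with 28632 and 13290 counts) and SYVN1 (a ubiquitin ligase of the ER, -0.59, with 899 and 516 counts). Whether the lists differ beyond the spread between cultures was not tested, as each condition has 1 library.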

How the data were processed

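Poly(A) RNA of HEL cells was sequenced in 1 library per condition. Per the labels, fastp (version 2.0), HISAT2 (2.1.0), StringTie and the build hg38 are named in the submitters' processing notes. The authors deposited raw read counts per Ensembl gene, without normalization, and FPKM values. The program that counted reads, the annotation and the strand setting are not given in the sources used here, and reads over overlapping or repeated genes could be split between them.

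TMM factors were computed from the counts with edgeR 4.0.16 in R 4.3.3. DESeq2 1.42.0 supplied size factors for an alternative only. Other steps used Python 3.11.15, numpy 2.4.6, pandas 2.3.3 and scipy 1.17.1. Calls and medians used a prior count of 2, while single genes are given without one and with Clopper-Pearson intervals. The differences between 29 pairs of genes have exact conditional intervals, or Woolf intervals where a count reached 3000. Intervals cover counting error only, as each condition has 1 library. Reads without molecular identifiers are not independent molecules, so the intervals may be too narrow even for counting error. Names came from the FPKM tables, then from a gene table that matched 61757 of 61806 identifiers. Positions, exon overlaps and shared 31-base words came from GENCODE release 29. Scripts were tested on simulated data.

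The members and lists were chosen with earlier results of these data known. Named are all members, ATF4, DDIT3 and, in each of 9 lists, genes at least 2-fold apart and the highest and lowest, all with at least 100 counts. PPP1R15A, TRIB3, ATF3, MTRR, GCLM, GSS, GLDC, CASTOR1, SYVN1, the markers, the paralogs of the members, the genes at 0 counts and those shown for a motif match were named after values were seen. Some items that the rule would name are not reported here.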

Additional observations from a re-analysis of the deposited data

How the results depend on the processing

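No paired analysis was possible because only 1 library stands for either condition, and for the same reason no library could be left out. The alternatives were set with earlier results known. The summing of ASNS with its overlapping gene, the restriction to protein-coding genes and the lengths of single transcripts were added after seeing the data. No member reached 2-fold under any of them, except that at a threshold of 1.5-fold 2 members (PSAT1 and CBS) were lower. The members' median stayed between -0.19 and -0.11 over 12 alternatives. Of 55 values of single members, 52 stayed within the gene's counting interval and none of the members whose interval excludes 0 changed sign. Several of these alternatives could move little or not at all, and they are not independent checks. Ratios of the deposited FPKM equal those of the TMM-scaled counts apart from the added 1 or 0.1. Copies of PSAT1, PSPH and ASNS held 0 counts. The members' median could not change under the filters, which dropped no member, and the ASNS sum left it unchanged. MTHFD2 moved to -0.13 with total counts and to -0.14 with upper quartile scaling, and CBS to -0.63 with log2(FPKM + 1). SHMT2 ranged from -0.03 to 0.05 and CTH from -0.03 to 0.05 over the 4 scalings, so neither has a direction. All 45 values of the list medians stayed between the medians of their genes' lower and upper counting bounds, which are not an interval of the median. Lists with a median near 0 changed sign. The asparagine, glutamine, proline and arginine list went from -0.03 to 0.02 with total counts. The sestrin and GATOR list went from 0.02 to -0.01 with DESeq2 size factors. The genes at least 2-fold higher and lower, 1290 and 876, became 199 and 153 with log2(FPKM + 1), 348 and 298 with log2(FPKM + 0.1), 3544 and 1811 with no filter beyond 1 count, 694 and 491 where both libraries had to reach 10 counts, 387 and 361 with at least 100 counts in 1 library, 2506 and 2065 at 1.5-fold, 567 and 345 at 3-fold, 547 and 350 with the whole interval past 2-fold, and 688 and 502 among protein-coding genes. Fewer or more genes entered under the filters. With FPKM only the 13924 genes that have a value entered, and the added 1 or 0.1 draws ratios of genes at low FPKM toward 0. The 1.5-fold, 3-fold and whole-interval settings differ by definition of the call. How much each of these contributed was not tested. Depth limits CHAC1 and CTH most, whose intervals are the widest of the members.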

Other observations

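Several genes next to the members in metabolism were not detectable at this depth. ASS1, which makes the precursor of arginine, PRODH, the first enzyme of proline breakdown, and the asparaginases ASPG and ASRGL1 had 0 counts in both libraries, as did BHMT and CDO1, which act on homocysteine and cysteine. A count of 0 allows up to 3 counts, or 0.0921 CPM (counts scaled to library size) in DMSO and 0.111 CPM in L1. MTAP, which salvages methionine from polyamine synthesis, had 3 counts in DMSO and 0 in L1. The hormone FGF21 and the stress factor NUPR1, both ATF4 targets in other tissues, had 0 counts in both libraries, and STC2 had 0 in DMSO and 3 in L1. Reads that the counting left unassigned would also give a 0, which was not tested.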
